A study of Mus musculus with 3 samples.

Results

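The genes described here encode the 3 enzyme families with which the liver joins small molecules to a polar partner: the glutathione transferases (Gst, with the membrane-bound Mgst), the UDP-glucuronosyltransferases (Ugt) and the cytosolic sulfotransferases (Sult). They were taken by gene symbol, and all 50 were found among the 49492 entries of the tables, 23 of them Gst, 18 Ugt and 9 Sult genes. Liver RNA of CD-1 mice (a laboratory strain kept outbred) was sequenced in 3 groups of 1 library each. One group had oral ZnO nanoparticles daily at 25 mg/kg body weight for 12 weeks, the next had the same dose for 8 weeks, and control mice had the same volume of phosphate-buffered saline (PBS). The sources used here do not give the animals' sex or age, how many animals a library holds, the hour of collection or when the control was taken. No difference below therefore has a replicate check, no p-value is given, and a difference between libraries may be one between animals.

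These enzymes add glutathione, glucuronic acid or sulfate to drugs, pollutants, bilirubin, steroids, thyroid hormones and bile acids, mostly so that they can be exported in bile or urine. Glutathione transferases act on reactive electrophiles, glucuronosyltransferases sit in the endoplasmic reticulum and use UDP-glucuronic acid, and sulfotransferases of the cytosol use the sulfate donor PAPS. Hepatocytes are the main site of all 3 reactions, and in rodents several members differ between male and female liver.

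The libraries held 13263211 counts at 12 weeks, 14258770 at 8 weeks and 13614979 in the control, so that 3 counts corresponded to 0.227, 0.209 and 0.221 CPM, the counts scaled to library size. Of 10 hepatocyte markers, 9 were found, and none of these 9 differed by 2-fold between any libraries. The 10 Kupffer cell markers summed to 3397 counts at 12 weeks, 4939 at 8 weeks and 1149 in the control, with 9 of 10 higher at 12 weeks and 10 of 10 at 8 weeks. The 10 skeletal muscle markers summed to 21, 2880 and 32 counts in the same order, all 10 higher at 8 weeks. Of the 5 kidney markers, 4 were at 0 in all 3 libraries and the other had 1 count at 8 weeks. The part of macrophage or muscle RNA in the transferase values was not tested. In such bulk samples, fewer cells of a type and less RNA per cell cannot be told apart.

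Most transferase genes differed by less than 2-fold, and the ones that differed more were mainly Gst and Sult genes that were higher after ZnO nanoparticles. Changes are log2 ratios of CPM + 1, and genes at or beyond 2-fold were called, a cutoff on size that tests nothing. Of the 50 genes, 46 reached 1 CPM in at least 1 library. Sult3a1 did so at 12 weeks alone and Ugt2b37 in the control alone, and Mgst2, Sult1e1, Sult2a1 and Sult2a2 did not. At 12 weeks against the control, 5 of the 46 were higher and 0 lower, against 3.11% higher and 1.34% lower among the 14585 genes at 1 CPM or more. The 5 include Sult3a1, which passed 1 CPM only through the 12-week library where it is high, so that its call is no support. At 8 weeks against the control, 7 were higher and 2 lower, with 4.15% of all genes higher and 2.10% lower. The median log2 ratio of the 46 genes was -0.11 at 12 weeks and 0.15 at 8 weeks, beside -0.01 and -0.02 over all genes. The 46 include 8 Ugt1a entries that share exons, so they are not 46 separate values. At 1.5-fold, 7 were higher and 4 lower at 12 weeks (9.28% and 6.22% of all genes), and 10 were higher and 5 lower at 8 weeks (10.6% and 7.97%). Both comparisons share the single control library.

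The families differed in their summed level. The 9 Sult genes summed to 312 CPM at 12 weeks, 354 at 8 weeks and 148 in the control, with log2 ratios to the control of 1.07 (interval 1.00 to 1.15) and 1.25 (1.18 to 1.33). All intervals are exact 95% ones for the counts themselves, with no CPM added, and they cover counting error only. The 23 Gst genes summed to 2869 CPM at 12 weeks, 3467 at 8 weeks and 3278 in the control (log2 ratios -0.19 and 0.08). The 18 Ugt genes summed to 3316, 3907 and 4282 CPM (-0.37 and -0.13). Thus the sum of the Sult genes was above 2-fold in both treated libraries, while the Gst and Ugt sums lay within 1.5-fold of the control. The Sult sum leaves out Sult2a8, a gene outside the 50, and with the other Sult genes added its log2 ratios were -0.40 and -0.50.

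**Figure D1:**
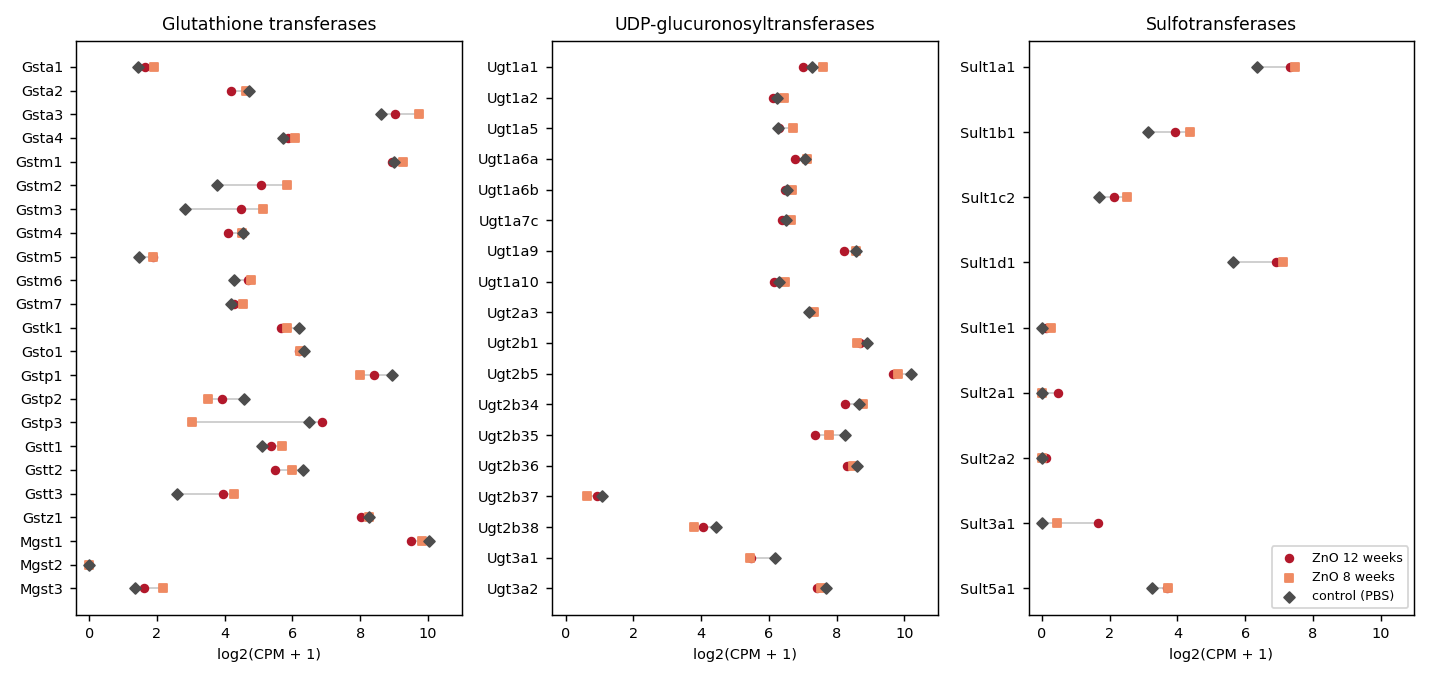
Level of each of the 50 genes in the 3 libraries as log2(CPM + 1), in 1 panel per family, with the libraries as points and a grey line over their range. The widest gap is that of Gstp3, at 115 CPM at 12 weeks, 7.12 at 8 weeks and 89.0 in the control.

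Of the 22 Gst genes that reached 1 CPM, 3 were higher and 0 lower at 12 weeks (3.11% and 1.34% of all genes). At 8 weeks, 4 were higher and 2 lower (4.15% and 2.10% of all genes). Those higher were Gstm2 and Gstm3 of the mu class and Gstt3 of the theta class in both comparisons, and Gsta3 of the alpha class at 8 weeks. The 2 lower at 8 weeks were the pi-class genes Gstp2 and Gstp3. Per length of exon, the 3 highest Gst genes over the libraries were Gstp1, Mgst1 and Gstm1, with means of 477, 443 and 363 CPM per kb.

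Alpha-class enzymes handle lipid peroxidation products and steroids, and Gsta3 is known in mice for conjugating the reactive epoxide of aflatoxin. Gsta3, at chr1:21240589-21265661 on the plus strand of mm10, had 522 CPM at 12 weeks, 849 at 8 weeks and 393 in the control. It was thus highest at 8 weeks, with a log2 ratio of 1.11 (1.07 to 1.16) there and of 0.41 (0.36 to 0.46) at 12 weeks. Gsta4, which acts on hydroxynonenal, had 57.9, 66.6 and 51.8 CPM in the order 12 weeks, 8 weeks and control. Gsta1 and Gsta2, whose reading frames are 97.5% identical, had log2 ratios of 0.21 and -0.52 at 12 weeks and of 0.49 and -0.08 at 8 weeks. Their single values are uncertain, as reads may be split between them, and Gsta1 had only 28, 40 and 23 counts. The intervals of Gsta1, -0.53 to 1.18 at 12 weeks and -0.06 to 1.53 at 8 weeks, include 0. Gsta3 made up most of the alpha-class sum, which was 599 CPM at 12 weeks, 942 at 8 weeks and 471 in the control.

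The mu class, with broad activity on electrophiles, lies in 1 cluster on chromosome 3, with Gstm2 at chr3:107981702-107986453 and Gstm3 at chr3:107963696-107969283, both on the minus strand. Its members differed among themselves. Gstm2 had 32.7 CPM at 12 weeks, 56.7 at 8 weeks and 12.7 in the control, with log2 ratios of 1.29 (1.10 to 1.62) and 2.07 (1.92 to 2.40). Gstm3 had 21.3, 33.6 and 6.04 CPM, with log2 ratios of 1.66 (1.46 to 2.19) and 2.30 (2.14 to 2.83). Both were higher in the 2 treated libraries, and higher at 8 than at 12 weeks, by log2 ratios of -0.78 and -0.64 for 12 against 8 weeks. Gstm1, the most abundant mu gene, had 486 CPM at 12 weeks, 611 at 8 weeks and 506 in the control (log2 ratios -0.06 and 0.27). Gstm4, Gstm5, Gstm6 and Gstm7 ranged from -0.46 to 0.43 at 12 weeks and from -0.04 to 0.50 at 8 weeks. The reading frames of Gstm2 and Gstm3 are 85.2% identical, the nearest copy of Gstm2 being Gstm7 at 85.4%. As Gstm1 holds most of the mu-class counts, their sum had log2 ratios of 0.04 and 0.41.

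The pi class held the largest log2 ratio between the treated libraries among the 46 genes. Its 3 genes stand side by side on the minus strand of chromosome 19, and pi-class transferase is known to be more abundant in male than in female mouse liver. Their promoters are shown because the values of Gstp3 differed from those of its neighbours. Each is 300 bases of the GRCm38.p6 assembly from RefSeq, written 5′ to 3′ on the gene's strand from 250 bases before to 50 after the start, with capitals for the motifs named below. They lie at chr19:4037863-4038162, chr19:4042172-4042471 and chr19:4059398-4059697.
Gstp1: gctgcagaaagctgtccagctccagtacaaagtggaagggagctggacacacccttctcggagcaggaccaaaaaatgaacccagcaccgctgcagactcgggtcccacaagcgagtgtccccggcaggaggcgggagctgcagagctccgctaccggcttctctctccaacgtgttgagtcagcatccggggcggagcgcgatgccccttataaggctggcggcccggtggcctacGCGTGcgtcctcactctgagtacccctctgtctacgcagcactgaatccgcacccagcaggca
Gstp2: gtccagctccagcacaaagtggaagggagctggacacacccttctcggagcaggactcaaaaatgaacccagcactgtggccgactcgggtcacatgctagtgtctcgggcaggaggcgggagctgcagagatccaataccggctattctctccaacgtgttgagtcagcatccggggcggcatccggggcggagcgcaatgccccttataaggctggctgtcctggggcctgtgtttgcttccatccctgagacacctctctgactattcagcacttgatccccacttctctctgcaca
Gstp3: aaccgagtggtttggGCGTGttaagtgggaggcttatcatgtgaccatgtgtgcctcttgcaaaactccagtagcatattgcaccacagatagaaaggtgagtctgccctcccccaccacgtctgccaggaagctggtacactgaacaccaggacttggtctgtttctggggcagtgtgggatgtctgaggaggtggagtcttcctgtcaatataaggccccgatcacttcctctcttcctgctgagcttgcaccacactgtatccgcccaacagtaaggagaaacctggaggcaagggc
The windows of Gstp1 and Gstp2 are 81.0% identical, whereas that of Gstp3 is 55.3% identical to Gstp1 and 50.3% to Gstp2. The reading frames of Gstp1 and Gstp2 are 98.1% identical, and that of Gstp3 is 73.5% and 73.6% identical to theirs. Single values of Gstp1 and Gstp2 are therefore uncertain, as reads may be split between them.

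Gstp3 had 115 CPM at 12 weeks, 7.12 at 8 weeks and 89.0 in the control, or 1528, 102 and 1207 counts. The 8-week library alone was low, with a log2 ratio to the control of -3.47 (-3.95 to -3.35), while the 12-week library stood at 0.37 (0.27 to 0.49). Between 12 and 8 weeks the log2 ratio was 3.84 (3.73 to 4.32). Gstp1 had 340 CPM at 12 weeks, 254 at 8 weeks and 489 in the control, and Gstp2 had 14.0, 10.3 and 22.8 CPM. Both were lower in the treated libraries, Gstp1 with log2 ratios of -0.52 and -0.94 and Gstp2 of -0.67 and -1.08. At 8 weeks Gstp1 thus lay just inside the 2-fold line and Gstp2 just outside it. Summed, Gstp1 and Gstp2 had log2 ratios of -0.53 (-0.59 to -0.48) at 12 weeks and -0.95 (-1.01 to -0.90) at 8 weeks.

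**Figure D2:**
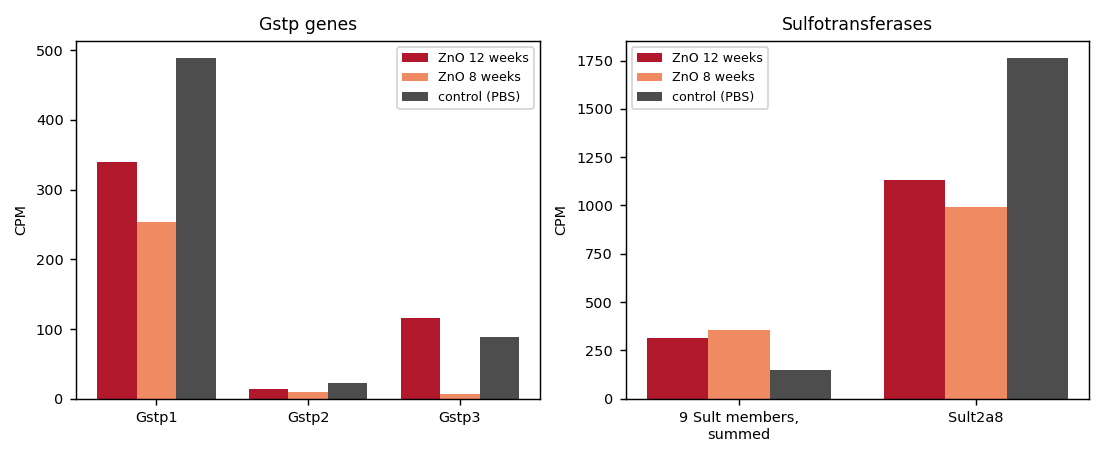
CPM of the 3 Gstp genes (left) and of the 9 summed Sult genes beside Sult2a8 (right), with 1 bar per library and axes from 0. Gstp3 is low at 8 weeks alone, while Sult2a8 is lower and the summed Sult genes higher in both treated libraries.

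Among theta-class genes, Gstt3 (chr10:75774115-75781414, minus strand) had 14.3 CPM at 12 weeks, 18.3 at 8 weeks and 5.01 in the control, with log2 ratios of 1.35 (1.11 to 1.94) and 1.68 (1.48 to 2.27). Gstt1, whose enzyme acts on small halogenated molecules, had 40.6, 50.6 and 33.2 CPM, and Gstt2 had 44.2, 62.7 and 79.2 CPM. The 3 neighbours on chromosome 10 thus differed in direction, Gstt2 being lowest at 12 weeks (-0.83, interval -0.99 to -0.70). Gstt3 shares 19.9% of its exon bases with the overlapping model Gm20441 on the same strand, whose counts were 153, 189 and 219.

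The other Gst genes were below 2-fold in both comparisons. Mgst1, the microsomal enzyme of the endoplasmic reticulum and outer mitochondrial membrane, had 718 CPM at 12 weeks, 912 at 8 weeks and 1045 in the control (log2 ratios -0.54 and -0.20). It held 25.0%, 26.3% and 31.9% of all Gst counts. Gstz1, which isomerizes maleylacetoacetate in tyrosine breakdown, had 257, 303 and 306 CPM. Gstk1, of mitochondria and peroxisomes, had -0.54 and -0.37, and Gsto1, which reduces dehydroascorbate, -0.14 and -0.11. Mgst3 had 27, 51 and 21 counts, and Mgst2 had 0 counts in each library, which at this depth allows up to 0.227 CPM.

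**Figure D3:**
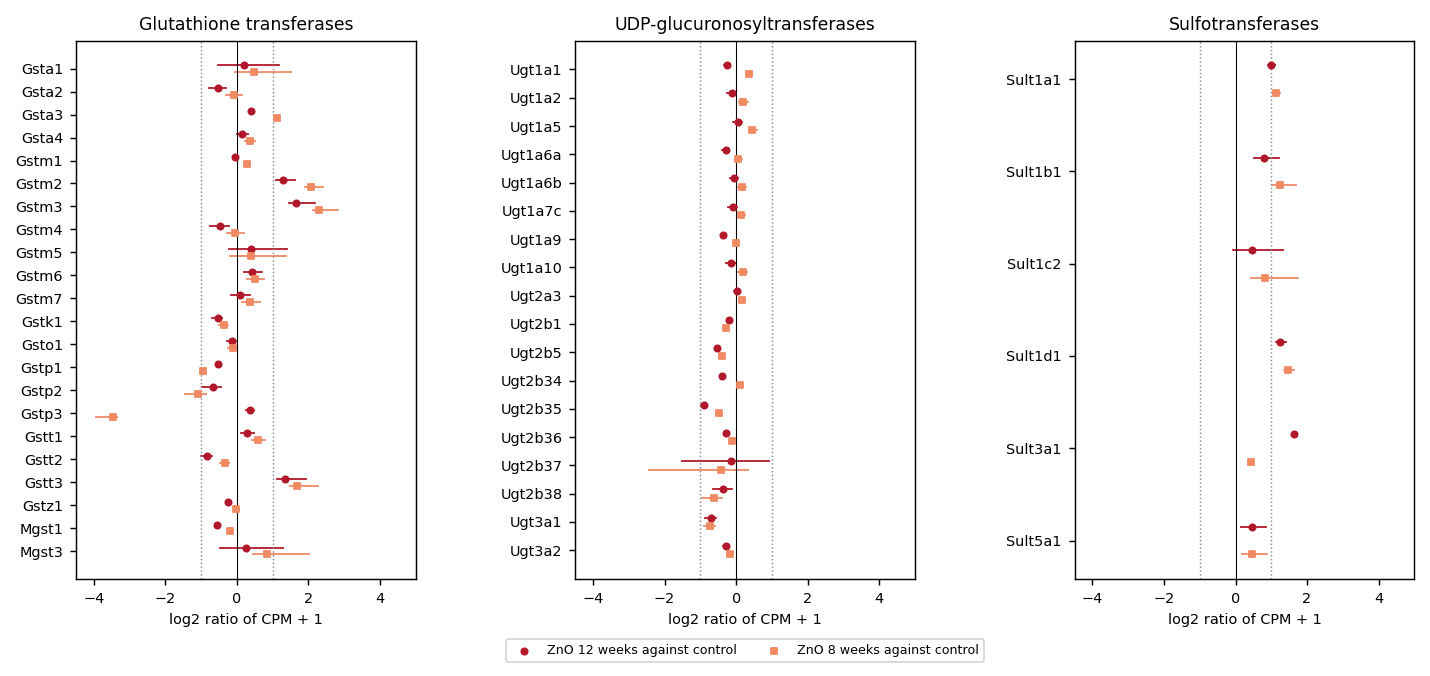
Log2 ratios of CPM + 1 to the control for the 46 genes at 1 CPM or more, with 12 weeks above 8 weeks for each gene. Bars are exact 95% intervals of the count ratio, left out for Sult3a1, which has no control counts; dotted lines mark 2-fold, and all Ugt points lie between them.

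No Ugt gene was called in any comparison, where at most 4.15% of all genes were higher and at most 2.10% lower. A count of 0 among 18 genes is near those shares. Of the 18, 16 had negative log2 ratios at 12 weeks, with a median of -0.27 and a range of -0.89 to 0.05. At 8 weeks 9 were positive and 9 negative, with a median of 0.03 and a range of -0.73 to 0.45. Those 18 include the 8 Ugt1a entries, which share exons and may share reads, so these are not 18 separate values. Ugt2b37 reached 1 CPM only in the control, where it is highest, so that its negative log2 ratios are no support. Per length of exon, the highest were Ugt2b5, Ugt2b36 and Ugt2b1, with means of 521, 172 and 167 CPM per kb.

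Ugt2 enzymes glucuronidate steroids, bile acids and many drugs, and their genes cluster on chromosome 5. Ugt2b5 had 818 CPM at 12 weeks, 906 at 8 weeks and 1182 in the control, with log2 ratios of -0.53 (-0.57 to -0.50) and -0.38 (-0.42 to -0.35). Ugt2b35 had 164, 218 and 305 CPM, with -0.89 (-0.97 to -0.82) at 12 weeks, the lowest value of any Ugt gene in that comparison. Both were highest in the control and lowest at 12 weeks. Ugt2b36 had 317, 357 and 386 CPM and Ugt2b1 had 414, 391 and 481. Ugt2b34 was at 306 CPM at 12 weeks, 437 at 8 weeks and 404 in the control, and Ugt2a3 had log2 ratios of 0.02 and 0.15. Summed, the 8 Ugt2 genes had 2183, 2484 and 2925 CPM, or -0.42 (-0.44 to -0.40) and -0.24 (-0.26 to -0.22). Ugt2b38 (-0.36 and -0.63) and Ugt2b37 (12, 8 and 15 counts) resemble Ugt2b5 at 97.1% and 94.7% of the reading frame, so their single values are uncertain. The hexosyltransferase relatives Ugt3a1 and Ugt3a2 were lower in both treated libraries, Ugt3a1 at 43.2, 42.5 and 71.2 CPM and Ugt3a2 at 170, 184 and 207 CPM. Their reading frames are 93.3% identical, so their single values are uncertain too. Summed, they had log2 ratios of -0.38 and -0.30.

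**Figure D4:**
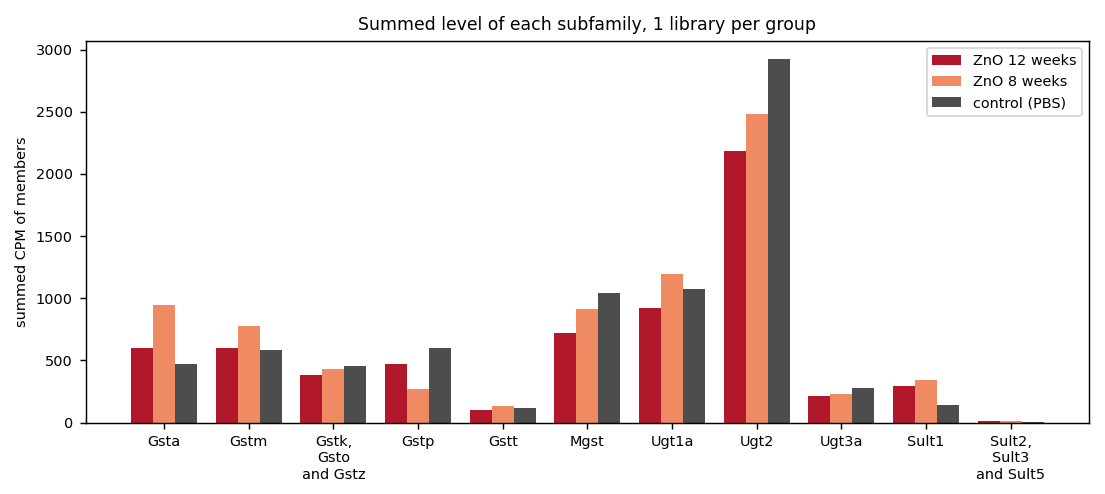
Summed CPM of the genes of each subfamily, with 1 bar per library. The Ugt2 genes have the highest sum in each library, at 2183 CPM at 12 weeks, 2484 at 8 weeks and 2925 in the control, and the Sult1 bars are higher in both treated libraries.

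The Ugt1a genes need a reading of their own, because each has its own promoter and starting exon on chromosome 1 but all share the later exons. In the tables, between 50.3% and 82.7% of the exon bases of the 8 Ugt1a members also belong to other entries, and their deposited values carry fractions and a common part. Ugt1a2 was the lowest Ugt1a entry in each library, with 908 counts at 12 weeks, 1226 at 8 weeks and 1013 in the control. An amount equal to that entry made up 87.2%, 81.9% and 98.4% of the value of Ugt1a5. The summed 8 genes had 920, 1196 and 1078 CPM (log2 ratios -0.23 and 0.15).

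How shared reads were divided is not given in the sources used here. If the common part is the same in every entry, the counts above the lowest entry are a gene's own reads less those of Ugt1a2, which are unknown. Ugt1a5 had 133 such counts at 12 weeks, 271 at 8 weeks and 16.8 in the control, or 10.0, 18.9 and 1.23 CPM. This remainder was larger in both treated libraries, which does not show by how much Ugt1a5 itself differed, and its whole entry had log2 ratios of 0.05 and 0.45. No fold is given for these remainders, since both their size and their differences depend on the own reads of Ugt1a2. Ugt1a1, the bilirubin-conjugating enzyme, had 59.1 CPM above the lowest entry at 12 weeks, 109 at 8 weeks and 77.9 in the control. Ugt1a9, which acts on bulky phenols, had 227, 298 and 309 CPM, and Ugt1a6a, which acts on small phenols, 39.2, 53.0 and 57.8 CPM. These 3 remainders were lowest at 12 weeks. The remainders of Ugt1a6b were 19.2, 16.5 and 16.9 CPM and those of Ugt1a7c 15.0, 13.7 and 15.0 CPM, while Ugt1a10 had 2.56 CPM or less. Ugt1a7c shares 2170 exon bases with Ugt1a6a and 1444 with Ugt1a6b, while each of these 3 genes shares 1311 with Ugt1a2. The reading frames of Ugt1a6a and Ugt1a6b are 98.4% identical. For these 3 genes the common part is thus not the same, and their remainders may hold reads shared among them. Gm20528, a model on the opposite strand, overlaps exon bases of all 8 Ugt1a members. It shares 922 bases with Ugt1a1, 534 with Ugt1a10 and 394 with each of the others. Its 4295, 6163 and 4752 counts leave the values of all 8 uncertain.

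The own promoter of Ugt1a5 is shown because Ugt1a5 had the highest log2 ratios of the Ugt genes in both comparisons, at chr1:88165762-88166061 on the plus strand in the same assembly.
Ugt1a5: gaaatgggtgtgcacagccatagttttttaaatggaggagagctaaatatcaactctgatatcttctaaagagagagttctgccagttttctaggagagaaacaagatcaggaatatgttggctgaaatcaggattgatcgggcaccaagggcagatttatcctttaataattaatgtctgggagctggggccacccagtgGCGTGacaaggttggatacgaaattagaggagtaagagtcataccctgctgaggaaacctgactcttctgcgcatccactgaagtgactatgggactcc

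**Figure D5:**
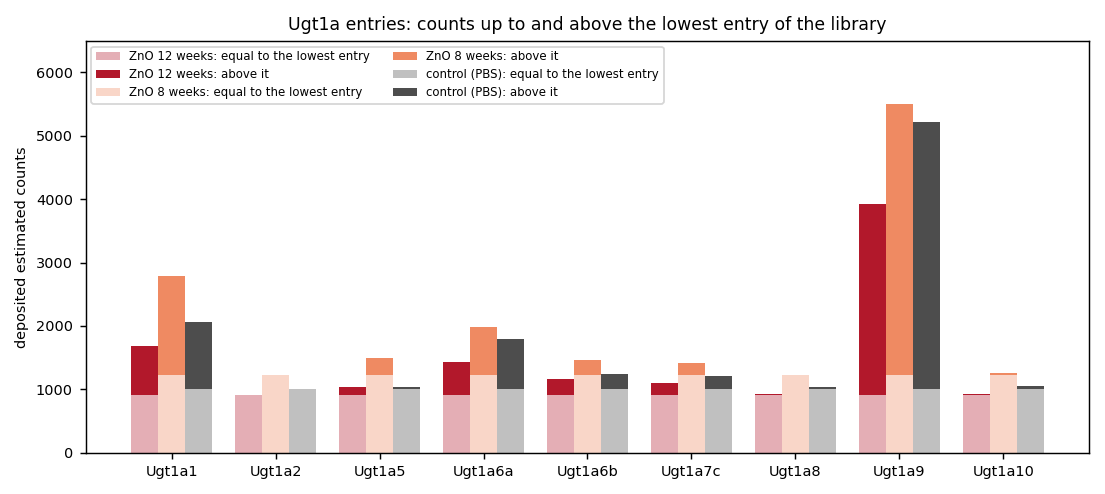
Deposited estimated counts of the 9 Ugt1a entries, with 1 bar per library, pale up to the lowest entry of that library (Ugt1a2) and dark above it. The dark part of Ugt1a5 is 133 counts at 12 weeks, 271 at 8 weeks and 16.8 in the control.

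Of the Sult genes, 6 reached 1 CPM, Sult3a1 among them only through the 12-week library where it is high. Of the other 5, Sult1d1 was higher at 12 weeks and 3 were at 8 weeks (3.11% and 4.15% of all genes). None was lower in either (1.34% and 2.10% of all genes). All 5 had positive log2 ratios in both comparisons, though the interval of Sult1c2 at 12 weeks, -0.08 to 1.34, includes 0. Sult1d1, which sulfates catecholamines and related amines, lies at chr5:87554645-87569027 on the minus strand and had 119 CPM at 12 weeks, 139 at 8 weeks and 49.4 in the control, with log2 ratios of 1.25 (1.14 to 1.40) and 1.48 (1.37 to 1.62). Sult1a1, the main phenol sulfotransferase (chr7:126672865-126676432, minus strand), had 161, 178 and 80.2 CPM, with 0.99 (0.90 to 1.11) and 1.14 (1.05 to 1.25). Both genes were well above the control in each treated library and slightly higher at 8 than at 12 weeks, and Sult1a1 at 12 weeks lay just inside the 2-fold line. Sult1b1, which acts on thyroid hormones, had 14.3, 19.8 and 7.81 CPM (0.79 and 1.24). Sult1a1 held 51.5% of the family's counts at 12 weeks, 50.2% at 8 weeks and 54.2% in the control, and Sult1d1 held 38.1%, 39.3% and 33.3%.

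Sult1b1, Sult1d1 and the estrogen sulfotransferase gene Sult1e1 are neighbours on the minus strand of chromosome 5, next to the Ugt2 cluster. Sult1e1 had 1, 3 and 0 counts, too few for any comparison. The promoter of Sult1d1 lies at chr5:87568957-87569256 and is shown because that gene had the largest log2 ratios among Sult genes above 5 CPM.
Sult1d1: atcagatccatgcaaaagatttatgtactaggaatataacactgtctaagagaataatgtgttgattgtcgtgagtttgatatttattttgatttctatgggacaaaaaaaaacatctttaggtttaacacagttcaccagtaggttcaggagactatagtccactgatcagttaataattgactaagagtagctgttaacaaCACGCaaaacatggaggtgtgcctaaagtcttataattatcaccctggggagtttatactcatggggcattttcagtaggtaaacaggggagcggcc
No reading frame of another listed Sult gene is more than 65.0% identical to that of Sult1d1 or of Sult1b1.

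Sult2a1, Sult2a2 and Sult3a1 are known in mice as hydroxysteroid and amine sulfotransferases that are more abundant in female liver. Sult3a1 had 28 counts at 12 weeks, 5 at 8 weeks and 0 in the control. The exact interval of its log2 ratio to the control began at 2.86 at 12 weeks and at -0.20 at 8 weeks, so that a difference was not detectable at 8 weeks at this depth. Sult2a1 had 5 counts at 12 weeks and 0 in the other 2 libraries, and Sult2a2 had 1 count at 12 weeks. Each of the 3 stayed at 2.11 CPM or less. Sult5a1 had 12.0, 12.1 and 8.48 CPM, and Sult1c2 had 3.40, 4.68 and 2.21 CPM.

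The Sult sum says nothing of Sult2a8, a sulfotransferase for bile acids in mouse liver that is not among the 50 genes and that was singled out after its values were seen. It had 1133 CPM at 12 weeks, 991 at 8 weeks and 1764 in the control, and was lower in both treated libraries, with log2 ratios of -0.64 (-0.67 to -0.61) and -0.83 (-0.86 to -0.80). Sult2a8 alone held 78.3%, 73.5% and 92.3% of the counts of all listed Sult genes. With the other Sult genes added, the family sum was 1447 CPM at 12 weeks, 1349 at 8 weeks and 1913 in the control, with log2 ratios of -0.40 and -0.50 to the control.

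The 2 treated libraries were also compared with each other. At 12 against 8 weeks, 2 of 46 genes were higher, Gstp3 and Sult3a1, and 0 were lower, while 1.28% of all genes were higher and 1.23% lower. Sult3a1 had 28 counts at 12 weeks and 5 at 8 weeks (log2 ratio 1.21, interval 1.21 to 4.33), and passed the filter through the 12-week library alone. Of the 46 genes, 38 had negative log2 ratios, with a median of -0.26 beside -0.0009 over all genes. As the 8 Ugt1a entries among them share exons, these are not 46 separate values. At 1.5-fold, 2 were higher and 5 lower (5.41% and 4.73% of all genes). The sums were lower at 12 weeks for the Gst genes (-0.27, interval -0.29 to -0.25), the Ugt genes (-0.24, -0.26 to -0.22) and the Sult genes (-0.18, -0.24 to -0.12). Apart from the pi class, whose sum was higher (0.79), each Gst subfamily was lower, from -0.65 for the alpha class to -0.19 for Gstk1, Gsto1 and Gstz1 together. The pi-class sum was 469 CPM at 12 weeks and 271 at 8 weeks, and the alpha-class sum 599 and 942 CPM.

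Genes that supply the conjugating groups were mostly within 2-fold of the control. In glutathione synthesis and recycling, 1 of 11 genes at 1 CPM or more was higher in each comparison with the control (3.11% and 4.15% of all genes) and none lower. That gene was Chac1, a glutathione-degrading enzyme of the stress response, with 72 counts at 12 weeks, 39 at 8 weeks and 11 in the control. Chac1 reached 1 CPM only in the treated libraries, where it is high, so that its calls are no support. Gclc, the catalytic subunit of the rate-limiting ligase and named here after its values were seen, had 250, 258 and 471 CPM (log2 ratios -0.91 and -0.86). Of 5 genes of UDP-glucuronic acid supply, 0 were called, with Ugp2, which makes UDP-glucose, at 0.02 and 0.56 and the transporter Slc35d1 at 0.18 and 0.08. Of 7 genes of PAPS supply, 0 were called, and Papss2, the liver's PAPS synthase, had 328, 401 and 206 CPM (0.67 and 0.96). Impad1, the next most abundant, had -0.12 and -0.22, and Suox, at 1077, 961 and 1370 counts, had -0.31 and -0.58.

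Among 11 export and uptake transporters of conjugates, 1 was higher at 12 weeks and 3 at 8 weeks, with 0 lower in both. Over all genes, 3.11% were higher at 12 weeks and 4.15% at 8 weeks, and 1.34% and 2.10% were lower. The efflux pump Abcb1a had 155, 162 and 22 counts (2.28 and 2.23), the uptake carrier Slco1a4 had 120, 316 and 99.9 CPM (0.26 and 1.65), and the exporter Abcc4 had 0.62 and 1.22. Of 15 other conjugation enzymes, 1 was higher and 2 lower at 12 weeks, and 2 were higher and 1 lower at 8 weeks. Nnmt, which methylates nicotinamide, had 190 counts at 12 weeks, 24 at 8 weeks and 1 in the control. Its counting intervals of the log2 ratio were 5.11 to 12.92 and 1.89 to 9.87. Nnmt reached 1 CPM only in the treated libraries, where it is high, so that its calls are no support. Gm4952, a glycine N-acyltransferase-like gene, had 78.8, 106 and 231 CPM (-1.54 and -1.12), and the methyltransferase gene Inmt had 86.3, 204 and 72.7 CPM. Nat1 was lower at 12 weeks with 6, 12 and 27 counts. It reached 1 CPM only in the control, where it is highest, so that its call is no support.

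Regulators were within 2-fold of the control for all 15 genes listed. The receptor gene Nr1i3 (CAR) had 329 CPM at 12 weeks, 412 at 8 weeks and 517 in the control, and Hnf4a had 1140, 851 and 816 CPM. Of 10 genes known as targets of CAR and PXR, 5 were higher in each comparison with the control (3.11% and 4.15% of all genes) and 0 lower. Cyp2b9 had by far the highest log2 ratios in both (5.98 and 6.98). Cyp2b10 (1.70 and 1.07), Cyp2c55 (1.19 and 1.36) and Cyp2c29 (1.15 and 1.14) were called in both. Cyp3a13 was called at 12 weeks alone (1.09 and 0.93) and Alas1 at 8 weeks alone (0.92 and 1.46). Cyp2c55, with 28, 36 and 5 counts, reached 1 CPM only in the treated libraries, where it is high, so that its calls are no support. Cyp3a11, the most abundant of the 10, had -0.26 and 0.38, and Aldh1a1 had -0.72 and -0.11. The 10 genes summed to 92849 counts at 12 weeks, 142483 at 8 weeks and 102391 in the control, most of them from Cyp3a11. Cyp2b9 is also known as a female-predominant P450. Of 8 AhR targets, 3 reached 1 CPM and 0 were called, the most abundant being Cyp1a2 at 0.02 and -0.23. NRF2 targets outside the transferases had 0 of 16 higher and 1 lower at 12 weeks (3.11% and 1.34% of all genes). At 8 weeks, 2 were higher and 2 lower (4.15% and 2.10% of all genes). The epoxide hydrolase gene Ephx1 was lower in both (-1.03 and -1.02), Osgin1 had -0.90 and -1.13, and Ces1g had 0.09 and 1.28.

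RefSeq start windows were found for 44 of the 50 genes, 53 windows in all, and 4 motifs were searched on both strands. The antioxidant response core TGACNNNGC was found in 12.4% of all 32851 windows of that length and in 4 windows of these genes, those of Gsta3, Gstm5, Gstm7 and Mgst1. The AhR core GCGTG was in 32.4% of all windows and in 11 of the 53, and the nuclear receptor core AGGTCA in 16.3% and in 11. The palindrome TTCNNNGAA bound by STAT factors was in 8.30% and in 6. The antioxidant core TGACCACGC of Gstm5 overlaps an AhR core. The Gstp1, Gstp3, Ugt1a5 and Sult1d1 windows shown hold 1 AhR core each, and that of Gstp2 holds none of the 4 motifs. Only exact matches were counted. The Gstp1 and Gstp2 windows both hold TGAGTCAGC, which is 1 letter from the antioxidant core and was not counted. Gstm2 and Gstm3, higher in both treated libraries, hold none of the 4 in their windows. The Gsta3 window, shown for its antioxidant core in capitals, lies at chr1:21240335-21240634 on the plus strand.
Gsta3: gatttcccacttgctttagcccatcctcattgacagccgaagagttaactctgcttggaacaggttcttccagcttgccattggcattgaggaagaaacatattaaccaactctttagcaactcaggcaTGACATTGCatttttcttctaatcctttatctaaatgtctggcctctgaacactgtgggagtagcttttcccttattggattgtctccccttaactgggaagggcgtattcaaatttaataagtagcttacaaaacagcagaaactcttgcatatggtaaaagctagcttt
A match describes the letters of a window and is neither a binding site nor a cause.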

How the data were processed

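Per the labels' protocols, the livers' Trizol-extracted RNA went into TruSeq libraries. The deposited tables hold 1 estimated count for each gene, per the file headers and the fractions among the values. Of the values above 0, 71.5% at 12 weeks, 70.2% at 8 weeks and 70.4% in the control were whole within 0.005. Cufflinks 2.2.1.0, TopHat2 2.1.0 and both the mm10 and mm9 builds appear in the submitters' processing notes. How reads were counted, and whether by strand, is not given in the sources used here. Opposite-strand, overlapping and near-identical genes may therefore share reads. Coordinates are those of the tables, where 43 of the 50 genes have the start and end of GENCODE M21 (mm10) and all 50 overlap their gene there.

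The authors' estimated counts were rounded, and library sizes were scaled by TMM with edgeR 4.0.16 under R 4.3.3 (factors 0.999 at 12 weeks, 1.005 at 8 weeks and 0.997 in the control). Genes reaching 1 CPM in at least 1 library were kept. Adding 1 CPM before the log2 ratio shrinks the ratios of weakly expressed genes. With 1 library per group nothing was tested. CPM per kb divides by the exon length in the tables. The members and lists were chosen with earlier results of these data known. Named members are those with 5 CPM in a library and a 2-fold call, the 3 highest of each family per length, and near-identical copies of either. Each list adds up to 3 called genes, or its 2 most abundant where none is called. Other genes were named to show their family or after their values were seen. Tf, Sts and Gsta5 were not found. Reading-frame identity is that of the longest open reading frames of GENCODE M21 transcripts, aligned end to end with Biopython 1.88. The calls and intervals were tried on simulated counts that varied by counting error alone. Those counts held no difference between animals, so the simulation does not show how the calls fare against one. Alternatives were other pseudocounts, filters, folds and scalings, among them DESeq2 1.42.0 size factors. Intervals treat reads as independent, which amplified reads need not be.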

Additional observations from a re-analysis of the deposited data

Results flagged for a closer look

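Gstp3 went in opposite directions in the treated libraries, with a log2 ratio to the control of 0.37 at 12 weeks and -3.47 at 8 weeks. With 1 library each, the difference was not tested, and both values share the control.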

How the results depend on the processing

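The Sult sum depends on which genes are counted. With the other listed Sult genes added, an alternative chosen after seeing the data, its log2 ratio was -0.40 at 12 weeks and -0.50 at 8 weeks, and 0.10 between 12 and 8 weeks, since Sult2a8 holds most of those counts. With 5 CPM added before log2, 3 genes were called higher at 12 weeks, 1 lower at 8 weeks and 1 higher between 12 and 8 weeks, and with a filter of 5 CPM the last count was also 1, as Sult3a1 dropped out. At 1.5-fold, 4 genes were lower at 12 weeks, 5 at 8 weeks and 5 between 12 and 8 weeks, where 6.22%, 7.97% and 4.73% of all genes were lower. The other 128 values of these counts and sums kept their direction and stayed within 1.5 times the count or within the counting interval, under these settings, 0.25 CPM added, library totals, DESeq2 size factors, unrounded counts, scaling without muscle genes, scaling on 2 libraries and the Ugt1a genes taken as 1 sum. No scaling moved the median of all genes by more than 0.1. Leaving out a replicate was not possible with 1 library per group. No paired analysis was possible because each group has a single library. Depth limits Mgst2, Sult1e1, Sult2a1 and Sult2a2.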

Other observations

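Of 26 further Gst, Ugt and Sult genes and relatives listed, 25 were found and 8 reached 1 CPM. Of these 8, 1 was higher (3.11% and 4.15% of all genes) and 0 lower in each comparison with the control. It was Sult2a7, with 16 counts at 12 weeks, 48 at 8 weeks and 1 in the control. Its counting intervals of the log2 ratio were 1.35 to 9.43 at 12 weeks and 2.96 to 10.84 at 8 weeks. Sult2a7 reached 1 CPM only in the treated libraries, where it is high, so that its calls are no support. The tyrosylprotein sulfotransferase genes Tpst1 and Tpst2 had log2 ratios of 0.15 and -0.21 at 12 weeks and of 0.47 and -0.42 at 8 weeks. Hpgds, the sigma-class transferase that makes prostaglandin D, had 20, 34 and 14 counts. The pseudogene Gstp-ps, with 50, 39 and 76 counts, had log2 ratios of -0.47 and -0.83, near those of Gstp1.

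Pericentral hepatocyte markers, genes of the zone around the central vein where many conjugating enzymes are known to be highest, summed to 186402 counts at 12 weeks, 224955 at 8 weeks and 254748 in the control. Cyp2e1 gave most of these counts (169986, 206287 and 237527), while Glul had 7275, 9912 and 6293 counts, with log2 ratios of 0.24 and 0.58. Of 9, 0 were higher in either comparison with the control, and 2 were lower at 12 weeks and 0 at 8 weeks (1.34% and 2.10% of all genes). Periportal markers summed to 55609, 67550 and 63516 counts, with 1 of 8 lower in each comparison with the control.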
